A study of Mus musculus with 2 samples.

Results

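The genes described are the nuclear genes for the subunits of the oxidative phosphorylation complexes, measured in 2 libraries of spatial transcriptomics. They were chosen by symbol: all symbols that begin with Nduf, Uqcr or Atp5, the cytochrome c oxidase genes Cox4 to Cox8 followed by a letter, the succinate dehydrogenase genes Sdha, Sdhb, Sdhc and Sdhd, and Cyc1. The rule gave 81 of the 19465 genes in the files. They are 34 genes of complex I, 4 of complex II, 8 of complex III, 15 of complex IV, 13 of ATP synthase, and a remainder of 7 that holds 6 complex I assembly factors (the Ndufaf genes) and Ndufa4l2, a paralogue of Ndufa4 known to respond to low oxygen. Cox4i1, Ndufa4 and Cox6b1 and the subunits encoded by mitochondrial DNA were not among these 81 and were not analysed here. The sums by complex therefore leave out some subunits. All 81 identifiers were found in the GENCODE M21 annotation of the mm10 build, from which the gene coordinates below are taken.

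Oxidative phosphorylation is the process by which mitochondria make ATP. Complexes I and II pass electrons from NADH and succinate to ubiquinone, complex III passes them on to cytochrome c and complex IV to oxygen, and the proton gradient that I, III and IV build drives ATP synthase. Skeletal muscle is known for its high content of these complexes, and some complex IV subunits have a separate isoform there: Cox6a2, Cox7a1 and Cox8b are the heart and skeletal muscle isoforms, and Cox6a1, Cox7a2 and Cox8a the widely expressed ones.

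The assay sums RNA over spots, barcoded areas laid out in a grid under the section, and 1 spot can cover several cells. Both groups were nude mice, a strain that lacks a thymus, and each group had 1 library, the flat group with a flat implant and the micropillar group with a micropillar implant, whose surface carries small posts. How many animals each library holds, their age and what the implant was made of are not stated in the labels. The values are counts of unique molecular identifiers (UMIs), each a tagged molecule, also written as CPM, counts per 1000000 UMIs. With 1 library per group, no difference between the groups has a replicate check, no p-value is given, and the 95% intervals cover counting error only. Fewer cells of a type and less RNA per cell cannot be told apart in such sums.

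Spots with at least 100 UMIs were kept. The 2681 kept spots of 3161 in the flat library held 2263345 UMIs with a median of 602 per spot, and the 3064 of 3303 in the micropillar library held 3173632 with a median of 831. The labels give bone as the tissue. Of the bone genes, Bglap (osteocalcin) had 294 UMIs with the flat implant and 483 with the micropillar implant, while Ibsp (bone sialoprotein) had 0 and 9. Each spot was assigned to the marker list, out of 12, whose UMIs most exceeded the number that its share over both libraries gives, or was left unassigned. By these lists 38.3% of flat and 42.6% of micropillar spots went to 7 sets led by neural genes, so many spots went to lists of another tissue than the label gives. Spot barcodes were shared between the libraries in 2135 cases, and capture slides of this kind carry the same barcode list in each area. The muscle set took 10.03% of flat spots and 1.44% of micropillar spots. Results are therefore given with and without that set. The libraries also differed in other lists, which leaving out the muscle set does not level. Over all kept spots the cortex list took 0.443% of flat and 0.301% of micropillar UMIs, and the thalamus list 0.0339% and 0.0671%. A set is named by its marker list and is not a cell type.

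The promoters of 5 of the 6 isoform genes are shown, without that of Cox6a2, because the results below turn on how each pair was divided between spots. They are the 250 bases before the gene start in RefSeq on GRCm38.p6, 5′ to 3′ on the gene's strand: Cox6a1 at chr5:115348959-115349208 (- strand), Cox7a2 at chr9:79759854-79760103 (- strand), Cox8a at chr19:7217617-7217866 (- strand), Cox7a1 at chr7:30183921-30184170 (+ strand) and Cox8b at chr7:140900447-140900696 (- strand). Capitals mark a match to 1 of 4 motifs, each searched on both strands. The letters GCGCATG are part of the site of NRF1, a factor known for driving genes of this pathway. For the ETS factors the letters were CTTCCGG. The E-box, a site of muscle factors, was searched as CAGCTG. The box near many gene starts that binds the general transcription machinery was searched as TATAAA, named TATA below. The genes are in the order of the widely expressed isoforms, then the muscle isoforms.
Cox6a1: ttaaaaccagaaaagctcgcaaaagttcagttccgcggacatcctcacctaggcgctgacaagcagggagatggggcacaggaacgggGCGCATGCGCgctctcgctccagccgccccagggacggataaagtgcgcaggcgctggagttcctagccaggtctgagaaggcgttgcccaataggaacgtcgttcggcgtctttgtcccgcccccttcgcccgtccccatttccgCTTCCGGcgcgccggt
Cox7a2: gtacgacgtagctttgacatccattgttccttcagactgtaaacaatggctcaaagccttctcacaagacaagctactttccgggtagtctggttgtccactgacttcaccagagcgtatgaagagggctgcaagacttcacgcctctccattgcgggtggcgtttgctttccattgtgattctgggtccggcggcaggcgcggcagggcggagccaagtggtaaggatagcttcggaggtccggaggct
Cox8a: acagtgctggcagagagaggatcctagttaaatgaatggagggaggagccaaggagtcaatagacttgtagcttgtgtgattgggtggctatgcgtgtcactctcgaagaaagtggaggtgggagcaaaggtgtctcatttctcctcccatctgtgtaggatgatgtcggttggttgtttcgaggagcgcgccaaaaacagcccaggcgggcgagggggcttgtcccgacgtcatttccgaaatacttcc
Cox7a1: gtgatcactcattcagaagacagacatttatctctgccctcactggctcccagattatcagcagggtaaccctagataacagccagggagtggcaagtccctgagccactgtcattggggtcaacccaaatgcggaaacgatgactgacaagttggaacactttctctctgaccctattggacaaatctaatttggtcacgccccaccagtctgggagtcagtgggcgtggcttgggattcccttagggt
Cox8b: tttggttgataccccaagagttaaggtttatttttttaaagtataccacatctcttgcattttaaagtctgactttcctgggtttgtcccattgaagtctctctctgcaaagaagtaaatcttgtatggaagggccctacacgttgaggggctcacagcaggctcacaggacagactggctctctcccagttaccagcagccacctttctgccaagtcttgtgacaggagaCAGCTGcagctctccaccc
The NRF1 letters matched at 162 and 159 bases before the start of Cox6a1, overlapping on opposite strands, and the ETS letters at 16 bases. The E-box letters began 19 bases before the start of Cox8b, and none of the letters searched was in the windows of Cox7a2, Cox8a or Cox7a1. GC content was 62.8% for Cox6a1, 54.8% for Cox7a2, 52.8% for Cox8a, 51.2% for Cox7a1 and 47.2% for Cox8b. Of 81 members, 63 had a promoter in the RefSeq table, with 68 promoters in all. The NRF1 letters were in 9 of these (13.2%) and in 3.24% of all 32851 promoters, the ETS letters in 17.6% and 6.91%, the E-box in 8.82% and 13.0%, and TATA in 8.82% and 12.4%. A match is a run of letters and not a site shown to be bound.

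Over the whole section the oxidative phosphorylation genes took nearly the same share of RNA in both libraries. They held 53738 UMIs, 2.37% of the total (95% interval 2.35 to 2.39), in the flat library and 73092 UMIs, 2.30% (2.29 to 2.32), in the micropillar library. The log2 ratio, always micropillar over flat in the section-wide comparison, came to -0.04 (-0.06 to -0.03). By complex it was -0.02 (-0.05 to 0.01) for complex I, -0.07 (-0.15 to 0.01) for complex II, -0.05 (-0.09 to -0.01) for complex III and -0.15 (-0.18 to -0.11) for complex IV. ATP synthase stood at 0.02 (-0.02 to 0.05), which turned to -0.04 with TMM scaling and with DESeq2 size factors, and the assembly factors with Ndufa4l2 at 0.07 (-0.04 to 0.17). Complex IV thus had the lowest summed ratio, and without Cox6a2, Cox7a1 and Cox8b it was -0.10 (-0.14 to -0.07). This did not hold for its median gene, at -0.037, beside -0.051 for complex I, -0.043 for complex II and -0.089 for complex III.

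Of the members, 72 had at least 20 CPM in 1 library. A gene is called higher or lower here if its log2 ratio lay past 0.32 or -0.32. By that measure 3 members were higher in the micropillar library, against a background of 17.1% of all 8077 genes at that level, 5 were lower, against 9.88%, and 64 lay within the limits. With TMM scaling the split was 1 higher and 9 lower, and with DESeq2 size factors 1 and 12. In spots of 500 UMIs or more it was 6 higher and 1 lower. The median member ratio was -0.04 and that of all genes 0.04. The all-gene median became -0.02 with TMM scaling, -0.01 with DESeq2 size factors and 0.05 in spots of 500 UMIs or more. No share of all genes called is given under these alternatives, so their splits cannot be set against one. The other 9 members were Ndufb3, Ndufb4, Ndufaf1, Ndufaf6, Ndufaf7, Cox4i2 (the lung isoform), and the testis isoforms Cox6b2, Cox7b2 and Cox8c, of which Cox8c had 0 UMIs in both libraries.

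**Figure D1:**
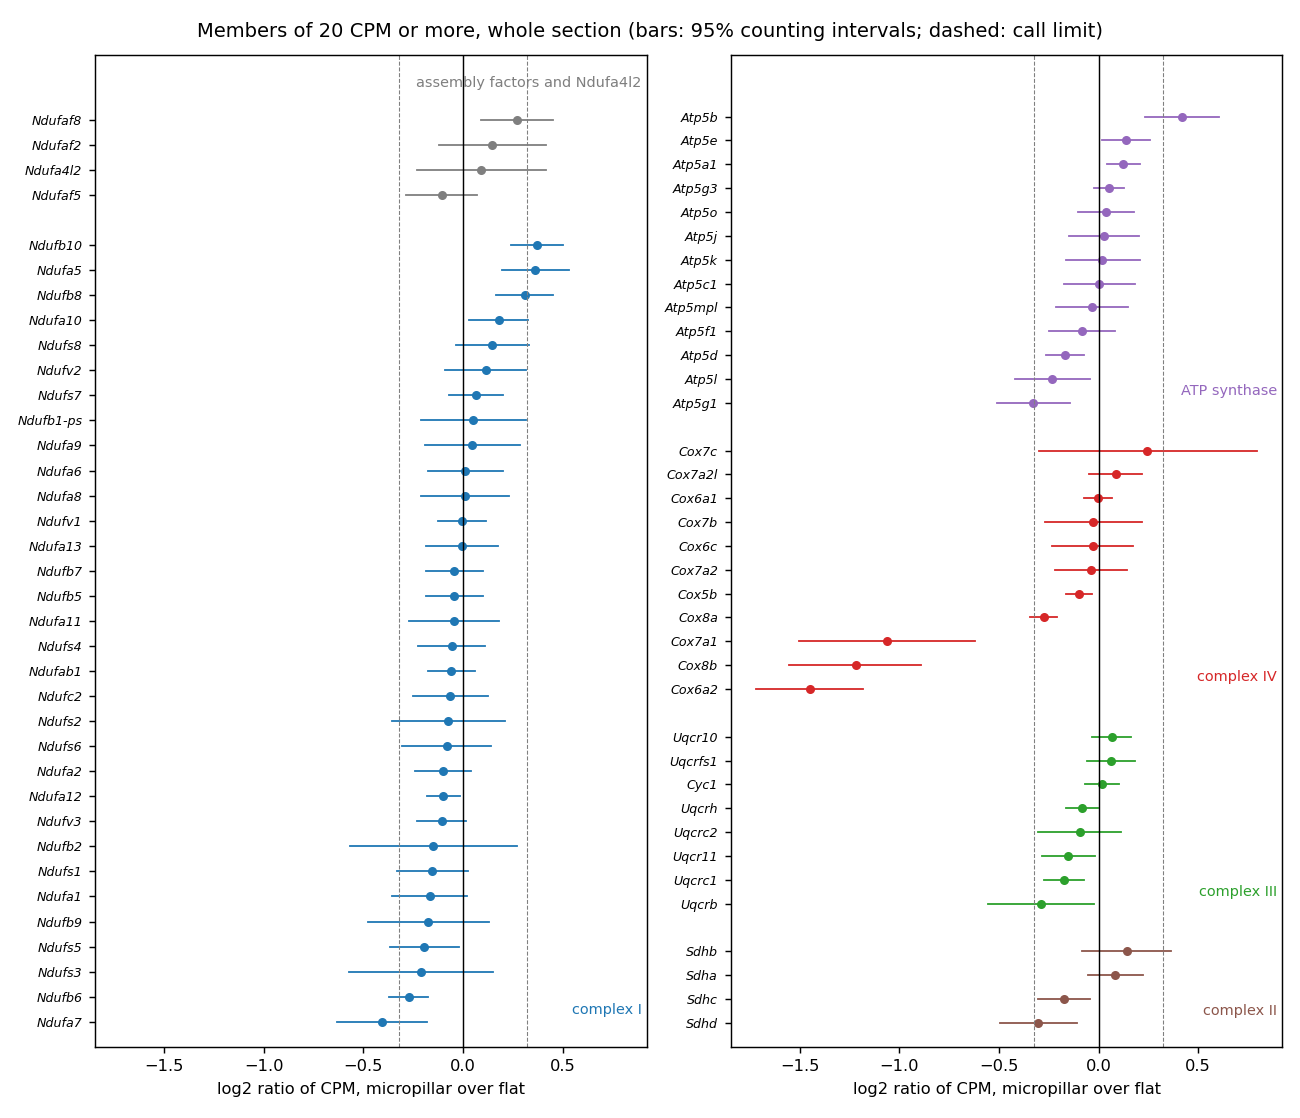
Log2 ratio of CPM, micropillar over flat, for each member with at least 20 CPM in 1 library, by complex, over all kept spots. Points are ratios of summed UMIs, bars 95% counting intervals and dashed lines the call limits of 0.32 and -0.32; Cox6a2, Cox8b and Cox7a1 lie apart at -1.45, -1.22 and -1.06.

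The 3 lowest ratios belonged to the muscle isoforms of complex IV, which lie on chromosome 7. Cox6a2 (chr7:128205435-128206387, - strand) had 341 UMIs or 151 CPM in the flat and 175 UMIs or 55.1 CPM in the micropillar library, for a log2 difference of -1.45 (-1.72 to -1.18). Cox8b (chr7:140898945-140900446, - strand) had 91.02 and 39.1 CPM, for a log2 difference of -1.22 (-1.55 to -0.89). Cox7a1 (chr7:30184144-30186078, + strand) had 48.6 and 23.3 CPM, for a log2 difference of -1.06 (-1.504 to -0.62). All 3 were thus lower in the micropillar library by more than their counting intervals, and they were the members past a limit of 1.5-fold, where 3 were lower (against 2.58% of all genes) and 0 higher (against 5.16%). Together they held 657 and 373 UMIs, for a log2 difference of -1.30 (-1.49 to -1.12), beside -2.23 (-2.29 to -2.18) for the 15 genes of the muscle marker list, which had 10696 and 3190 UMIs and of which 15 were lower. Without the muscle set the signs turned, to 0.10 (-0.30 to 0.51) for Cox6a2, 0.86 (0.26 to 1.497) for Cox8b and 0.34 (-0.30 to 1.01) for Cox7a1. In spots of 500 UMIs or more Cox8b turned to 0.68 and Cox7a1 to 0.059, while Cox6a2 stood at -0.22.

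Their widely expressed partners had ratios nearer to 0. Cox6a1 had 1237 CPM in the flat and 1234 CPM in the micropillar library, for a log2 difference of -0.00 (-0.07 to 0.07). Cox7a2 had 194 and 189 CPM, a ratio of -0.04 (-0.22 to 0.14), with the interval on both sides of 0. Cox8a had 1423 and 1176 CPM, a ratio of -0.27 (-0.34 to -0.21), within the limit. Cox5b, the complex IV gene with the most UMIs over both libraries, had 1393 and 1301 CPM, for a log2 difference of -0.10 (-0.17 to -0.03).

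Among the members outside complex IV, the highest ratio was that of Atp5b, the catalytic beta subunit of ATP synthase (chr10:128083273-128090391, + strand), with 371 UMIs or 164 CPM in the flat and 695 UMIs or 219 CPM in the micropillar library, for a log2 difference of 0.42 (0.23 to 0.60). The other genes above the limit, both for accessory subunits of complex I, were Ndufb10, from 328 to 424 CPM (0.37, 0.24 to 0.50), and Ndufa5, from 201 to 258 CPM (0.36, 0.19 to 0.53). Ndufb8, another accessory subunit, was just inside the limit at 0.31 (0.17 to 0.45), with 276 and 342 CPM. On the lower side, Ndufa7, an accessory subunit of complex I, had 140 and 105 CPM, a ratio of -0.41 (-0.63 to -0.18). Atp5g1, a gene for the c ring of ATP synthase, had 203 and 162 CPM, a ratio of -0.33 (-0.51 to -0.14), just outside the limit. Its paralogue Atp5g3, the ATP synthase gene with the most UMIs, had 1071 and 1112 CPM, a ratio of 0.05 (-0.02 to 0.13).

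The remaining genes with high or low ratios stayed within the limits. Sdhd, a membrane anchor of succinate dehydrogenase, stood at -0.30 (-0.50 to -0.11) and the complex III accessory gene Uqcrb at -0.29 (-0.55 to -0.02). The assembly factor Ndufaf8 stood at 0.27 (0.09 to 0.45), Cox7c at 0.24 (-0.30 to 0.80) on 47 and 78 UMIs, Ndufa10 at 0.18 (0.03 to 0.33) and the assembly factor Ndufaf2 at 0.15 (-0.12 to 0.42). Those with the most UMIs in the other complexes were also within it: Ndufa12 of complex I by -0.10 (-0.18 to -0.02), Sdhc of complex II by -0.17 (-0.30 to -0.04), Uqcrh of complex III by -0.08 (-0.17 to -0.00) and the assembly factor Ndufaf5 by -0.11 (-0.28 to 0.07).

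Without the muscle set the summed members stood at 0.00 on the log2 scale, with 6 of 71 members higher, against 16.7% of all 8041 genes, and 1 lower, against 9.92%. The 6 were Atp5b, Ndufb10, Ndufa5, Ndufb8, Cox8b and Cox7c, and the lower one was Ndufa7. Atp5b had 146 and 216 CPM there, for a log2 difference of 0.56 (0.37 to 0.76), and was higher in the micropillar library in each of the 9 other sets with at least 10 UMIs. Ndufb8, from 266 to 342 CPM (0.36, 0.21 to 0.51), was also higher in 9 of 9 sets, as was Ndufa10, at 0.20 (0.05 to 0.35) and within the limits. Ndufb10, at 0.41 (0.28 to 0.54), was higher in 8 of 9 and Ndufa5, at 0.38 (0.21 to 0.56), in 7 of 9. Ndufa7, at -0.33 (-0.57 to -0.10), was lower in 8 of 9. The interval of Atp5b spanned 0 in each of the 9 sets. These genes were picked by their section ratios, and the sets are parts of the same sums. Agreement in sign is thus partly built in, and no share of all genes with such agreement is given. The sets of 1 library share its section and its processing, so these counts are no replicates. This tally by set was added after the data were seen.

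The share of RNA held by the members differed more between sets than between libraries. It was highest in the muscle set, whose list holds genes of the contractile apparatus of skeletal muscle such as Acta1, Ckm and Myh4. There the members took 6.01% of UMIs (5.81 to 6.22) in the 269 flat spots and 4.63% (4.28 to 4.99) in the 44 micropillar spots. In all other spots they took 2.29% in both libraries, so that the muscle set was 2.62-fold higher in the flat and 2.02-fold higher in the micropillar library. No member is on a marker list. The muscle spots were shallow, with a median of 165 and 266.5 UMIs.

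The share was lowest in the matrix set, led by collagen and other matrix genes, with 1.41% (1.34 to 1.47) in 458 flat spots and 1.61% (1.55 to 1.67) in 448 micropillar spots. The keratin set followed with 1.78% and 1.92%. The sets of neural lists and the marrow set lay close together, from 2.10% (2.02 to 2.19) in the flat hypothalamus set to 2.79% (2.61 to 2.98) in the flat choroid set. In the micropillar library these sets ran from 2.21% in the cortex set to 2.52% in the white matter set, with the choroid set at 2.50% (2.39 to 2.62), whose interval overlaps that of the white matter set (2.46 to 2.58). The flat choroid set was above the flat striatum set, 2.46% (2.41 to 2.52), by more than the counting intervals.

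**Figure D2:**
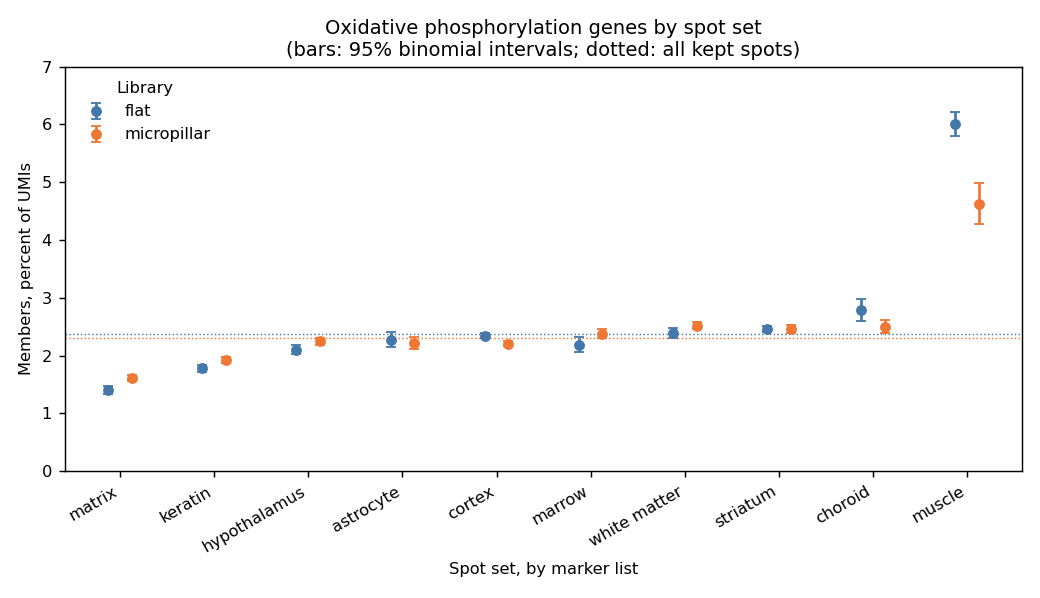
Percent of all UMIs of a spot set that belong to the 81 members (y axis), for 10 sets (x axis) in the flat and micropillar libraries, with 95% binomial intervals. Dotted lines give all kept spots, 2.37% and 2.30%; the muscle set stands above and the matrix set below all other sets in both libraries.

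In the muscle set the complexes of the electron transport chain and ATP synthase were all higher than in the other spots, and complex I by the smallest amount of these 5. In the flat library the log2 ratio of set over other spots was 1.13 (1.03 to 1.22) for complex I, 1.43 (1.17 to 1.68) for complex II, 1.495 (1.37 to 1.62) for complex III, 1.603 (1.496 to 1.71) for complex IV and 1.55 (1.44 to 1.66) for ATP synthase. In the micropillar library the values were 0.52 (0.28 to 0.75), 0.87 (0.23 to 1.45), 1.17 (0.90 to 1.43), 1.39 (1.16 to 1.61) and 1.28 (1.04 to 1.498). The order of the last 3 is within their counting intervals in both libraries. The assembly factors with Ndufa4l2 stood at 0.01 (-0.57 to 0.54) and -0.997 (-2.87 to 0.36), on few UMIs.

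**Figure D3:**
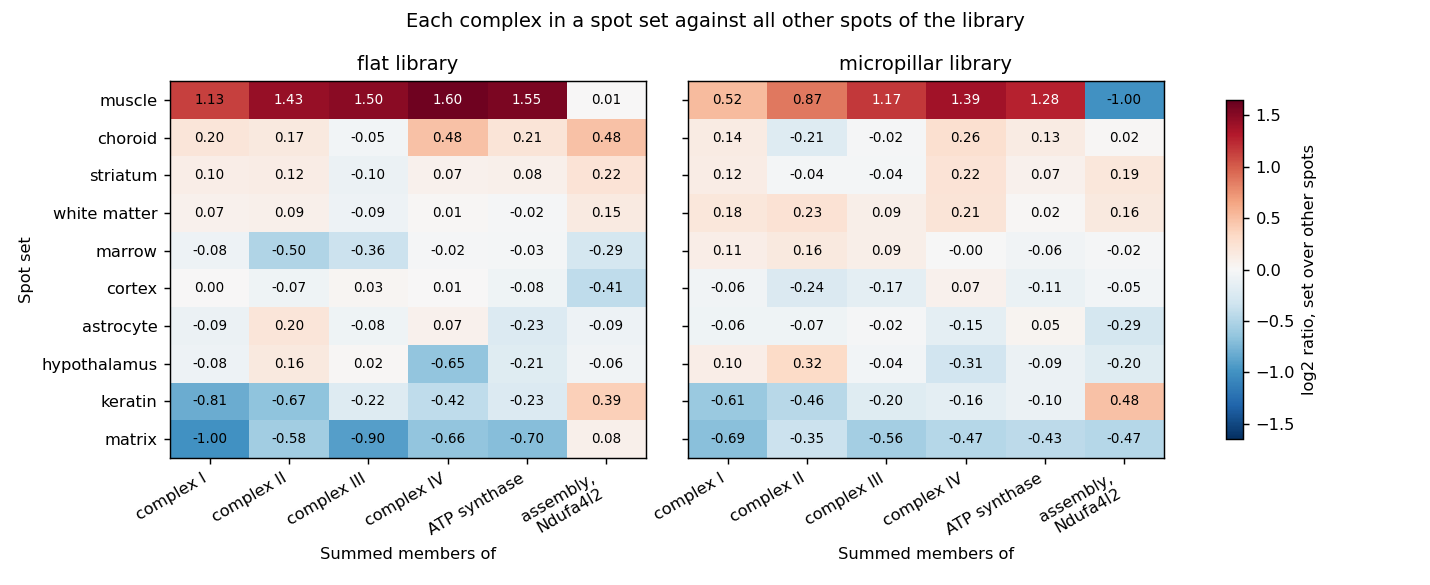
Log2 ratio of the summed UMIs of each complex (x axis) in a spot set (y axis) over all other spots of the same library, flat left and micropillar right, with the value printed in each cell. Red cells are higher and blue cells lower; the muscle row is highest for every complex except the assembly factors with Ndufa4l2, and the matrix and keratin rows are below 0 for complexes I to IV and ATP synthase, and lowest for complex I.

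For single genes in a set, a gene was compared with at least 20 CPM in the set or in the other spots, in both libraries, and at least 10 UMIs in the set, and called if it was more than 1.5-fold higher, or lower, in both libraries. In the muscle set 64 members could be compared, 31 of them were higher (48.4%, against 38.8% of 1092 genes) and 1 was lower (against 10.9%). The minimum of 10 UMIs favours genes that are high in so small a set, and the 17 members left out had 39 UMIs in the flat and 9 in the micropillar muscle spots. By complex, 10 of 26 compared genes of complex I were higher, 2 of 4 of complex II, 5 of 8 of complex III, 6 of 11 of complex IV and 8 of 13 of ATP synthase. For complex I this was close to the 38.8% of all genes. A call in a set takes no account of the counting intervals. In the micropillar library those of most of the higher complex I genes spanned 0, as did those of Sdhd, Cox7c and an ATP synthase gene. The median member stood at 1.32 with the flat implant and 0.72 with the micropillar implant, and that of all genes compared at 0.59 and 0.69.

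The muscle isoforms had the highest ratios. Cox8b had 3380 CPM in the muscle set and 14.5 CPM elsewhere in the flat library, for a log2 difference of 7.87 (7.32 to 8.46), and 3011 and 26.3 CPM in the micropillar library, 6.84 (6.26 to 7.40). Cox6a2 had 4914 against 39.8 CPM, 6.95 (6.59 to 7.32), and 2937 against 42.7 CPM, 6.10 (5.56 to 6.62). Cox7a1 had 1515 against 14.5 CPM, 6.71 (6.10 to 7.35), and 1175 against 18.4 CPM, 6.0003 (5.10 to 6.82). The next were Cox7c, at 3.14 (1.83 to 4.26) and 2.61 (-0.46 to 4.51) on 8 and 2 UMIs in the set, Atp5c1, the gamma subunit of the central stalk, at 2.67 (2.24 to 3.07) and 2.07 (1.06 to 2.91), and Atp5b at 2.64 (2.17 to 3.08) and 2.03 (1.07 to 2.84).

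At the other end stood 2 of the widely expressed partners. Cox6a1, the gene that was lower, had 233 CPM in the muscle set against 1260.5 elsewhere in the flat library, for a log2 difference of -2.44 (-3.39 to -1.63), and 294 against 1238 in the micropillar library, -2.08 (-3.95 to -0.72). Cox8a had 311 against 1449 CPM, -2.22 (-3.03 to -1.52), in the flat library but 955 against 1177 CPM, -0.30 (-1.21 to 0.47), in the micropillar library, so it was not called. The partner of the remaining pair went the other way: Cox7a2 was higher in the muscle set, at 1.38 (0.73 to 1.96) and 1.45 (0.13 to 2.51). The other low genes had 1 or 2 UMIs in the micropillar muscle spots: Ndufaf5 with 0.05 and -1.39, the core subunit gene Ndufs1 with 0.40 and -1.35, and the accessory genes Ndufv3 with 1.10 and -1.41 and Ndufa6 with 1.10 and -1.29. Their ratios had opposite signs in the libraries, and the micropillar intervals of all 4 spanned 0.

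**Figure D4:**
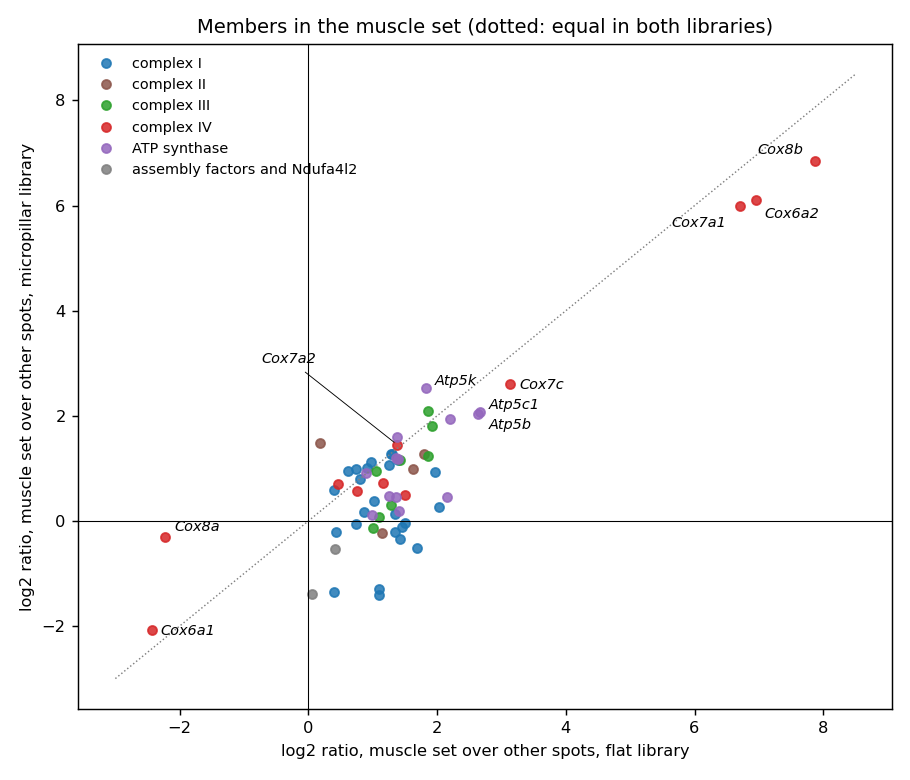
Log2 ratio of CPM in the muscle set over all other spots for each member compared, flat library on the x axis and micropillar library on the y axis, coloured by complex. Cox8b, Cox6a2 and Cox7a1 lie far to the upper right and Cox6a1 to the lower left; Ndufs6, with 0 UMIs in the micropillar muscle spots, has no point.

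Within the isoform pairs, the muscle isoform took most of the UMIs in the muscle set and few elsewhere. Cox6a2 took 95.5% (92.2 to 97.6; 253 of 265 UMIs) of its pair in the flat and 90.9% (78.3 to 97.5; 40 of 44) in the micropillar muscle set, and 3.06% and 3.34% outside it. Cox8b took 91.6% (86.7 to 95.1) and 75.9% (62.4 to 86.5) in the muscle set and 0.989% and 2.18% outside. Cox7a1 took 75.7% (66.3 to 83.6) and 69.6% (47.1 to 86.8) in the muscle set and 7.17% and 8.91% outside. A share compares a gene with its partner in different spots, since the capture of each gene is not known, so the shares of the 3 pairs are not compared with each other.

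Outside the muscle set Cox6a2 and Cox8b had smaller shares, which differed between sets. In the matrix set Cox6a2 took 13.9% (7.79 to 22.2) and 12.2% (7.87 to 17.7) of its pair, above the 2.90% (1.80 to 4.39) and 2.37% (1.23 to 4.10) that it took in the cortex set. Cox8b took 8.57% (3.99 to 15.6) and 9.36% (5.44 to 14.7) of its pair in the matrix set, above the 0.483% (0.132 to 1.23) and 0.883% (0.287 to 2.05) of the cortex set. The muscle list took 0.258% and 0.22% of the UMIs of the matrix set against 0.0274% and 0.0319% in the cortex set, and its part in these shares was not tested. In the choroid set Cox8b took 9.68% (4.52 to 17.6) of its pair on 9 UMIs and 7.95% (3.26 to 15.7) on 7 UMIs, with the muscle list at 0.0226% and 0.0552%. Cox7a1 rested on 8 or fewer UMIs in each set other than the muscle set. Its largest shares were 38.1% (18.1 to 61.6; 8 UMIs beside 13 of Cox7a2) in the micropillar choroid set, where the flat set had 0 beside 5, and 30.8% (9.09 to 61.4; 4 UMIs beside 9) in the flat marrow set, beside 12.5% (2.66 to 32.4) in the micropillar one.

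Where the isoform UMIs lay also differed between the libraries. The muscle set held 74.2% of all Cox6a2 UMIs with the flat implant and 22.9% with the micropillar implant, 70.9% and 21.6% of Cox7a1, and 84.5% and 33.1% of Cox8b. In the micropillar library 23.4% of the Cox6a2 UMIs lay in unassigned spots and 13.1% in the matrix set.

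**Figure D5:**
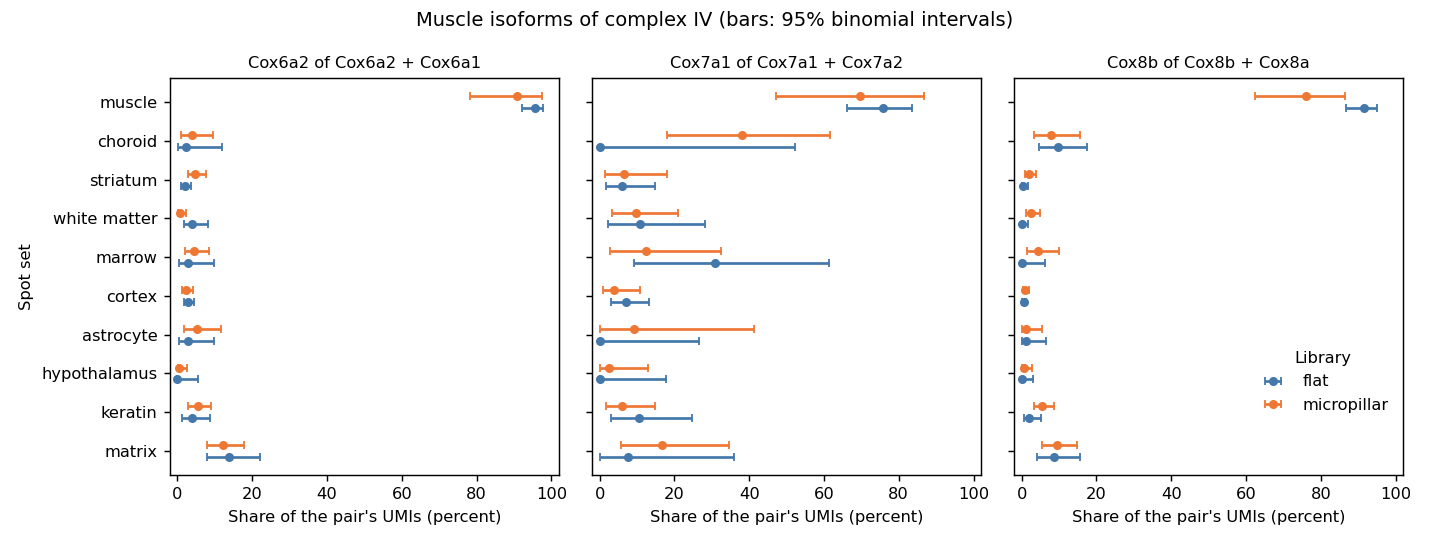
Share of a pair's UMIs taken by the muscle isoform (x axis, percent) in each spot set (y axis) for Cox6a2 with Cox6a1, Cox7a1 with Cox7a2 and Cox8b with Cox8a, in both libraries, with 95% binomial intervals. In the muscle set the shares lie between 69.6% and 95.5%; the wide intervals of Cox7a1 elsewhere rest on few UMIs.

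In the matrix set 67 members could be compared, 24 of which were lower than in the other spots (35.8%, against 19.6% of 6233 genes) and 1 higher (against 27.8%). Of the lower genes 13 belonged to complex I, 5 to ATP synthase, 3 to complex III, and 1 each to complex II, complex IV and the assembly factors. The median member stood at -0.90 and -0.55, and that of all genes compared at 0.14 and 0.04. The lowest was Atp5g1, with 42.05 CPM in the set and 212 CPM elsewhere in the flat library and 52.9 and 169 CPM in the micropillar library, log2 ratios of -2.34 (-3.96 to -1.10) and -1.67 (-2.74 to -0.78). The higher gene was Ndufa4l2 (chr10:127514967-127517154, + strand). It had 252 CPM in the flat matrix set against 48.5 elsewhere, 2.38 (1.74 to 2.98), and 164 against 56.6 CPM in the micropillar library, 1.53 (0.93 to 2.09).

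Ndufa4l2 was higher still in the keratin set, led by keratin and other epidermal genes. It had 512 CPM in that set against 24.3 elsewhere in the flat library, for a log2 difference of 4.40 (3.88 to 4.93), and 420 against 30.9 in the micropillar library, 3.77 (3.35 to 4.18). Over the whole section it had 59.2 and 63.02 CPM, a ratio of micropillar over flat of 0.09 (-0.23 to 0.42). Of 71 members compared in the keratin set 17 were lower (23.9%, against 19.5% of 6911 genes), 12 of them of complex I, and 3 were higher (against 35.6%), namely Ndufa4l2, Cox7c and Atp5k. Cox7c rested on 5 flat and 16 micropillar UMIs, at 30.8 and 61.1 CPM, beside 20.8 and 24.6 CPM over all kept spots. The lowest was the complex I accessory gene Ndufa9, with 1 UMI in the flat and 11 in the micropillar keratin spots, at -4.28 (-9.59 to -1.78) and -1.53 (-2.55 to -0.68). Ndufaf5 was next with 2 and 19 UMIs, at -4.17 (-7.22 to -2.31) and -1.48 (-2.22 to -0.82).

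In the choroid set 62 members were compared, 5 were higher (against 14% of 2658 genes) and 1 lower (against 6.62%). The highest was Cox8b, with 291 CPM against 88.2 elsewhere in the flat library, 1.72 (0.57 to 2.68), and 99.2 against 37.7 CPM in the micropillar library, 1.40 (0.05 to 2.48). Atp5g1 followed at 1.64 (0.89 to 2.30) and 1.34 (0.74 to 1.89), and the others were the core subunit gene Ndufs3, the accessory gene Ndufa11 and Cox7b. Ndufs3 stood at 1.66 (0.01 to 2.93) and 0.93 (-0.54 to 2.09) on 5 and 6 UMIs. The intervals of Ndufa11 and Cox7b spanned 0 in both libraries. The lower gene was Sdha, the flavoprotein of succinate dehydrogenase, with 97.0 CPM against 329 in the flat and 184 against 349 in the micropillar library, -1.76 (-4.04 to -0.21) and -0.92 (-1.84 to -0.14). Genes named in the called groups of 5 or fewer were chosen after their values were seen, apart from those the naming rule gave.

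The remaining sets had few called members. In the cortex set 3 of 70 were lower (against 9.92% of 7226 genes) and none higher (against 5.56%), and these were Cox7a1, Cox6a2 and Cox7c. Cox7c rested on 6 flat and 4 micropillar UMIs there, at 11.8 and 10.5 CPM. In the white matter set 2 of 70 were lower (against 3.53% of 6652 genes), Cox6a2 and Ndufa4l2, and none higher (against 5.35%). Ndufa4l2 stood at -1.01 (-2.90 to 0.39) and -1.30 (-2.63 to -0.23) on 4 and 7 UMIs in the set. The other spots in these comparisons include the muscle set, and also the keratin and matrix sets, in which Ndufa4l2 was higher. In the flat library Cox6a2 had 41.4 CPM in the cortex and 53.1 in the white matter set, beside 39.8 in all spots outside the muscle set. In the micropillar library it had 31.6 and 11.6 CPM beside 42.7. Cox7a1 had 15.8 CPM in the flat and 7.90 in the micropillar cortex set, beside 14.5 and 18.4. The part of the muscle, keratin and matrix spots in these calls was not tested. In the marrow, striatum, hypothalamus and astrocyte sets 0 of 66, 69, 68 and 62 members were called, with backgrounds, higher and lower, of 4.59% and 1.36%, 10.1% and 9.87%, 10.8% and 7.08%, and 5.33% and 1.4%. The highest members there were Cox7b in the marrow set (0.52 and 0.64), Ndufb10 in the striatum set (0.67 and 0.57), Ndufa9 in the hypothalamus set (0.52 and 0.64) and Uqcrb in the astrocyte set (0.53 and 0.46). The lowest were Uqcrc2 (-1.80 and -0.13), Cox6a2 (-2.50 and 0.35), Ndufb9 (-2.13 and 0.08) and Ndufc2 (-1.15 and -0.21), in the same order of sets, with ratios close to or above 0 in the micropillar library. Cox8a was highest in the cortex set (0.25 and 0.38) and Ndufs5 in the white matter set (0.63 and 0.40). In the hypothalamus set complex IV as a whole stood at -0.65 with the flat implant and -0.31 with the micropillar implant, its lowest value among the neural sets, and took 16.0% and 17.0% of the member UMIs against 21.8% and 20.3% over all kept spots.

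Between the libraries, the members within the muscle set took a smaller share in the micropillar library, at a log2 ratio of -0.38 (-0.50 to -0.25). The median member stood at -0.50 and that of all 802 genes compared there at -0.22. Complex I stood at -0.59 (-0.85 to -0.34), complex II at -0.57 (-1.26 to 0.06), complex III at -0.32 (-0.62 to -0.04), complex IV at -0.31 (-0.56 to -0.07) and ATP synthase at -0.21 (-0.46 to 0.04). The muscle marker list itself took 18.7% of the UMIs of the flat and 8.95% of the micropillar muscle set, and its part in the result was not tested. Per 1000 UMIs of the muscle list, a scale added after the data were seen, the members had 321 UMIs in the flat and 517 in the micropillar set, for a log2 difference of 0.69 (0.56 to 0.81), so the direction depends on the scale. On the same scale Cox6a2, Cox7a1 and Cox8b together had 52.4 and 79.6 UMIs, 0.60 (0.27 to 0.92).

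Within the matrix set the members took a larger share in the micropillar library, 0.20 (0.11 to 0.28). The median member stood at 0.22 and that of all genes compared there at 0.09. The cortex, striatum, thalamus, hypothalamus, white matter and astrocyte lists together took 0.452% of the UMIs of the flat and 0.573% of the micropillar matrix set, and their part in the result was not tested. In the other sets the summed members differed by less, from -0.16 (-0.28 to -0.04) in the choroid set to 0.12 (0.02 to 0.23) in the marrow set, with the striatum set at -0.00 (-0.05 to 0.05) and the cortex set at -0.09 (-0.13 to -0.05). The median member in these sets, in the same order, stood at -0.11, 0.12, -0.02 and -0.13. That of all genes compared stood at 0.26, 0.17, -0.03 and -0.01.

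The other genes of the pathway came from 5 lists and are called over the section by the same limit, against the same 17.1% and 9.88% of all genes. Of 28 assembly factors outside the rule 2 were higher and 2 lower, with Sco2, a copper chaperone of complex IV, highest at 0.41 (0.08 to 0.74), Sdhaf3 lowest at -0.61 (-1.23 to 0.00), and Ttc19, with the most UMIs of the list, at -0.16 (-0.33 to 0.00). Of 4 carriers and pore genes 1 was higher, Vdac2 at 0.35 (0.12 to 0.59), and Slc25a5 was lowest at -0.20 (-0.29 to -0.11), while Slc25a4, with the most UMIs, stood at 0.05 (-0.01 to 0.11). Of 15 genes of the tricarboxylic acid cycle 2 were higher and 1 lower, with Sucla2 at 0.46 (0.09 to 0.83) and Mdh2, malate dehydrogenase, at -0.39 (-0.62 to -0.17), and Pdhb, with the most UMIs, at -0.22 (-0.37 to -0.07). Of 6 regulators 1 was higher, Tfam, a factor of mitochondrial DNA transcription, at 0.88 (0.20 to 1.59) on 26 and 67 UMIs. Ppargc1b was lowest at -0.31 (-0.68 to 0.06), and Esrra, with the most UMIs, stood at -0.28 (-0.48 to -0.09). Of the uncoupling and brown fat list only Ucp2 reached the minimum, at 0.19 (0.04 to 0.34).

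In the muscle set the exchangers of ADP and ATP had ratios of opposite sign. Slc25a4, the exchanger isoform of heart and skeletal muscle, was higher at 2.39 with the flat implant and 2.21 with the micropillar implant, and Slc25a5, a widely expressed isoform, was lower at -1.34 and -0.62. Among the genes of the tricarboxylic acid cycle, Ogdh (1.54 and 1.61), Dld (1.17 and 0.77) and Pdha1 (1.68 and 0.97) were higher, and 0 were lower.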

How the data were processed

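The deposited matrices are raw counts, the number of UMIs of each gene in each spot, and were made with Space Ranger 2.0.1 per the file headers. Cell Ranger 7.2.0 and mm10 stand in the submitters' processing notes, while the kit in the labels is a directional one for mRNA and the sections were fixed in formalin and embedded in paraffin. These sources differ, and the probe set and counting settings are not stated in them, so levels of different genes were not compared. Of 11 symbols on 2 rows the row with more counts was used, and the other row stayed in the totals.

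Spots with at least 100 UMIs were kept, and doublets were not called, which has no meaning for spots. A spot went to the marker list with the largest Poisson log-likelihood ratio, given at least 3 UMIs of the list and 2-fold enrichment over its share in both libraries. The 10 sets with at least 20 spots in both libraries were compared. UMIs were summed over spots. Ratios have no pseudocount and exact conditional (Clopper-Pearson) 95% intervals, as have shares, and they cover counting error only. A count of 0 allows up to 3 counts. No test was made, since each group has 1 library. Genes named are the 8 highest and 8 lowest section ratios, the gene with most UMIs of each complex, the isoform pairs, the 6 highest and 6 lowest in the muscle set, and the highest and lowest elsewhere. The members and lists were chosen with earlier results of these data known. Scripts ran in Python 3.11.15 with numpy 2.4.6, scipy 1.17.1 and pandas 2.3.3, and R 4.3.3 with edgeR 4.0.16 (TMM factors) and DESeq2 1.42.0 (size factors), and were tested on simulated data. Alternatives covered scaling, spot weight and depth, gene level, fold and set definition. A withheld result is not reported here.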

Additional observations from a re-analysis of the deposited data

Results flagged for a closer look

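Spots with fewer than 100 UMIs were left out of every comparison, and the members were present in them above the limit that a count of 0 allows. In the 480 such spots of the flat library they took 2.84% (95% interval 2.63 to 3.06) of 22950 UMIs, where 3 counts would be 0.0131%. In the 239 such spots of the micropillar library they took 2.12% (1.90 to 2.36) of 15345 UMIs, where 3 counts would be 0.0196%. The muscle marker list took 5.68% of the UMIs of these flat spots and 0.508% of these micropillar spots, beside 0.473% and 0.101% of the kept spots, and its part in the member shares was not tested.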

How the results depend on the processing

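No paired analysis was possible because each group has 1 library, and no library can be left out. Of the 185 values that answer a comparison under alternatives, 120 stayed within the counting interval or within 1.5 times the count. The others follow, as log2 ratios of micropillar over flat unless said otherwise.

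TMM scaling gave -0.10 for all members, -0.090 without the muscle isoforms, -0.078 for complex I, -0.10 for complex III, -0.20 for complex IV, -0.038 for ATP synthase and a median of -0.10, with 1 member higher and 9 lower. DESeq2 size factors gave -0.10, -0.092, -0.080, -0.11, -0.21, -0.040 and -0.10, with 1 and 12. These scalings put the median of all genes at -0.02 and -0.01. No share of all genes called is given under them or under the mean of per-spot CPM, whose all-gene median was 0.06. The mean of per-spot CPM gave -0.14 for all members, -0.093 without the muscle isoforms, -0.076 for complex I, -0.19 for II, -0.15 for III, -0.26 for IV, -0.11 for ATP synthase and a median of -0.11, with 14 lower.

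Spots of 500 UMIs or more gave -0.024 for all members, -0.11 for complex IV and a median of -0.020, with 6 higher and 1 lower, and turned Cox8b to 0.68 and Cox7a1 to 0.059. Without the muscle set the values were 0.0022 for all members, 0.0010 without the muscle isoforms, 0.014 for complex I, 0.0023 for complex III, -0.092 for complex IV, 0.072 for ATP synthase and 0.0081 for the median, with 6 higher and 1 lower, and Cox6a2 turned to 0.10, Cox8b to 0.86 and Cox7a1 to 0.34. Genes of 5 CPM or more gave 8 lower, all genes with a UMI in both libraries 5 higher and 8 lower, and a 1.5-fold limit 0 higher and 3 lower, against 5.16% and 2.58% of all genes. The counts for spots of 500 UMIs, for 5 CPM and for a UMI in both libraries have no such share beside them.

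For members in the muscle set over other spots, 6 UMIs of the list gave 1.45 flat and 1.13 micropillar, totals without marker genes 1.68 and 1.16, spots of 500 UMIs, only 5 flat and 6 micropillar, 1.88 and 1.68, and the mean of per-spot CPM 0.76 in the micropillar library. In the matrix set an enrichment of 4 gave -0.61 micropillar, totals without marker genes -0.68 flat and -0.45 micropillar, spots of 500 UMIs -0.68 flat and the mean of per-spot CPM -0.94 flat. Within the muscle set, micropillar over flat was -0.60 by the mean of per-spot CPM, -0.22 in spots of 500 UMIs and -0.52 in totals without marker genes. In spots of 500 UMIs the share was 100% flat and 90% micropillar for Cox7a1 and 100% and 87.5% for Cox8b. Apart from fewer spots, genes or UMIs, the cause was not tested. In the other 8 sets 92 of 120 values lay within the main interval and 12 had the other sign. Depth limits the muscle set most.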
